A study of Mus musculus with 8 samples.

Results

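Interferon-stimulated genes are the genes that a cell turns on when interferon binds its receptor. The set described here was given as 39 gene symbols, and a member was measured when a row of the deposited table carried that symbol and no other. Of the 39, 34 had such a row, out of 19938 genes in all. The only rows of Isg15, Gbp2, Igtp and Irgm2 carried several symbols, and Ifi44 matched no named row, so these 5 genes were not analysed here. Hearts of 4 MHC-Plin5 males were set against hearts of 4 control males. Every animal was 12 weeks old, of the strain given as c57/bl, and its heart was labelled as fasted. The series title gives the overexpression as restricted to cardiomyocytes, which contract the heart, and the Plin5 product, perilipin 5, coats lipid droplets in tissues that burn fat. The labels name neither the transgenic line nor whether the control mice were littermates. RNA of each heart sample was read on 1 Affymetrix whole-transcript array, and all levels below are log2 values made by the authors with RMA.

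Type I and type III interferons are secreted by cells that sense foreign or misplaced nucleic acid. RIG-I-like receptors detect RNA in the cytosol and switch on interferon genes, and the secreted interferon then acts through receptor-bound kinases on transcription factors that include STAT2 and IRF9. STAT2 and IRF9 act at the interferon-stimulated response element (ISRE), a short DNA motif near the start of many antiviral genes. Another motif, the gamma-activated sequence (GAS), serves the response to type II interferon. In the heart, cardiomyocytes, endothelial cells, fibroblasts and resident macrophages can all respond to interferon.

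The ISRE core searched was GAAANNGAAA on either strand, where N is any base, in promoter windows from RefSeq (build GRCm38.p6) that run from 250 bases before to 50 bases after a transcript start of the gene. Windows existed for 24 of the 34 measured members, and 12 of these 24 (50%) held at least 1 ISRE core, against 3.99% of all 27025 genes with a window. The GAS core TTCNNNGAA was present in 5 of the 24 (20.8%), against 9.55% of all genes with a window. Some genes had more than 1 window, and a match is a run of letters, not a measured binding site. The windows printed below belong to the 4 members with the smallest p among those with an ISRE core, and they show the motif where it stands near that start. The capitals mark the ISRE cores, and each window reads 5′ to 3′ on the strand of the gene.
Ifit3, chr19:34583279-34583578, plus strand: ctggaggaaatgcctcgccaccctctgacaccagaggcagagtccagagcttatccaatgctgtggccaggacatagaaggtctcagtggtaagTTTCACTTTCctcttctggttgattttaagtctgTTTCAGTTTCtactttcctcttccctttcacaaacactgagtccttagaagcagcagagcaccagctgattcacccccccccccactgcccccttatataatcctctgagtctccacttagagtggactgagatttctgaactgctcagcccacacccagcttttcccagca
Cxcl10, chr5:92348840-92349139, minus strand: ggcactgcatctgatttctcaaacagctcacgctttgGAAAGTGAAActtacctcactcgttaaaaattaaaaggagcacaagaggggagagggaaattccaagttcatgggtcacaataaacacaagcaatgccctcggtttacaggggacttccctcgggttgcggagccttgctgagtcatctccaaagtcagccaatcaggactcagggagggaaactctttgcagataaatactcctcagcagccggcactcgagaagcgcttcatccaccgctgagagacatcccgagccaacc
Ifit1, chr19:34640639-34640938, plus strand: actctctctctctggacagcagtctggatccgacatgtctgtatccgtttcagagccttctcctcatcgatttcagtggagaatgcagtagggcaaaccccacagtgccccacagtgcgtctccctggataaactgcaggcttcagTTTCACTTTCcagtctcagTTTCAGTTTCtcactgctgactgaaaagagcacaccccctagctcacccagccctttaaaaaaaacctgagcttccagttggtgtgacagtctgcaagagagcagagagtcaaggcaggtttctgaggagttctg
Trim30a, chr7:104465144-104465443, minus strand: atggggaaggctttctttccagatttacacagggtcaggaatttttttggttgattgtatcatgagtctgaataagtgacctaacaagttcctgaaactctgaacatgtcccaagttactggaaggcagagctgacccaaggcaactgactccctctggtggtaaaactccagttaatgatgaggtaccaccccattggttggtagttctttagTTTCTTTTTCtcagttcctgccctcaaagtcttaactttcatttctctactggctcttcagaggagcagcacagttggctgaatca
The cores begin 156 and 122 bases before the transcript start of the printed window in Ifit3, 213 in Cxcl10, 104 and 85 in Ifit1 and 36 in Trim30a. The RefSeq gene record of Ifit3 begins upstream of its printed window.

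One heart stood apart from the other 7 in these genes. MHC-Plin5 3 held the highest level of the 8 hearts in 28 of the 34 members (82.4%), while it was highest in 17.1% and lowest in 22.6% of all genes. Control 2 was highest in 4 members (11.8%, against 32.7% of all genes), and MHC-Plin5 1 (Rsad2) and control 1 (Dtx3l) in 1 each. The level in MHC-Plin5 3 was above every control heart in 29 members (85.3%), against 25% of all genes. The median member lay 0.73 above its control mean in MHC-Plin5 3, against 0.03 in MHC-Plin5 1, 0.01 in MHC-Plin5 2 and -0.01 in MHC-Plin5 4. The array median over all rows was 5.99 in MHC-Plin5 3, between 6.0 and 6.18 in the other MHC-Plin5 hearts and between 6.03 and 6.25 in the controls. Control 2 and MHC-Plin5 4 had the highest array medians. Plin5 itself had levels of 12.17, 12.69, 12.63 and 12.08 in MHC-Plin5 1 to 4, against 8.92, 8.87, 9.04 and 8.58 in control 1 to 4. It was 11.7-fold higher in MHC-Plin5 hearts, with no overlap (log2 difference 3.54, SE 0.16, limma adjusted p = 6.9e-07). The 13 cardiomyocyte markers averaged 12.92 to 13.18 in the MHC-Plin5 hearts and 13.11 to 13.16 in the control hearts, with MHC-Plin5 3 the lowest of the 8. Each group result below includes MHC-Plin5 3, and for every member the difference without that heart is given beside the difference with it.

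**Figure D1:**
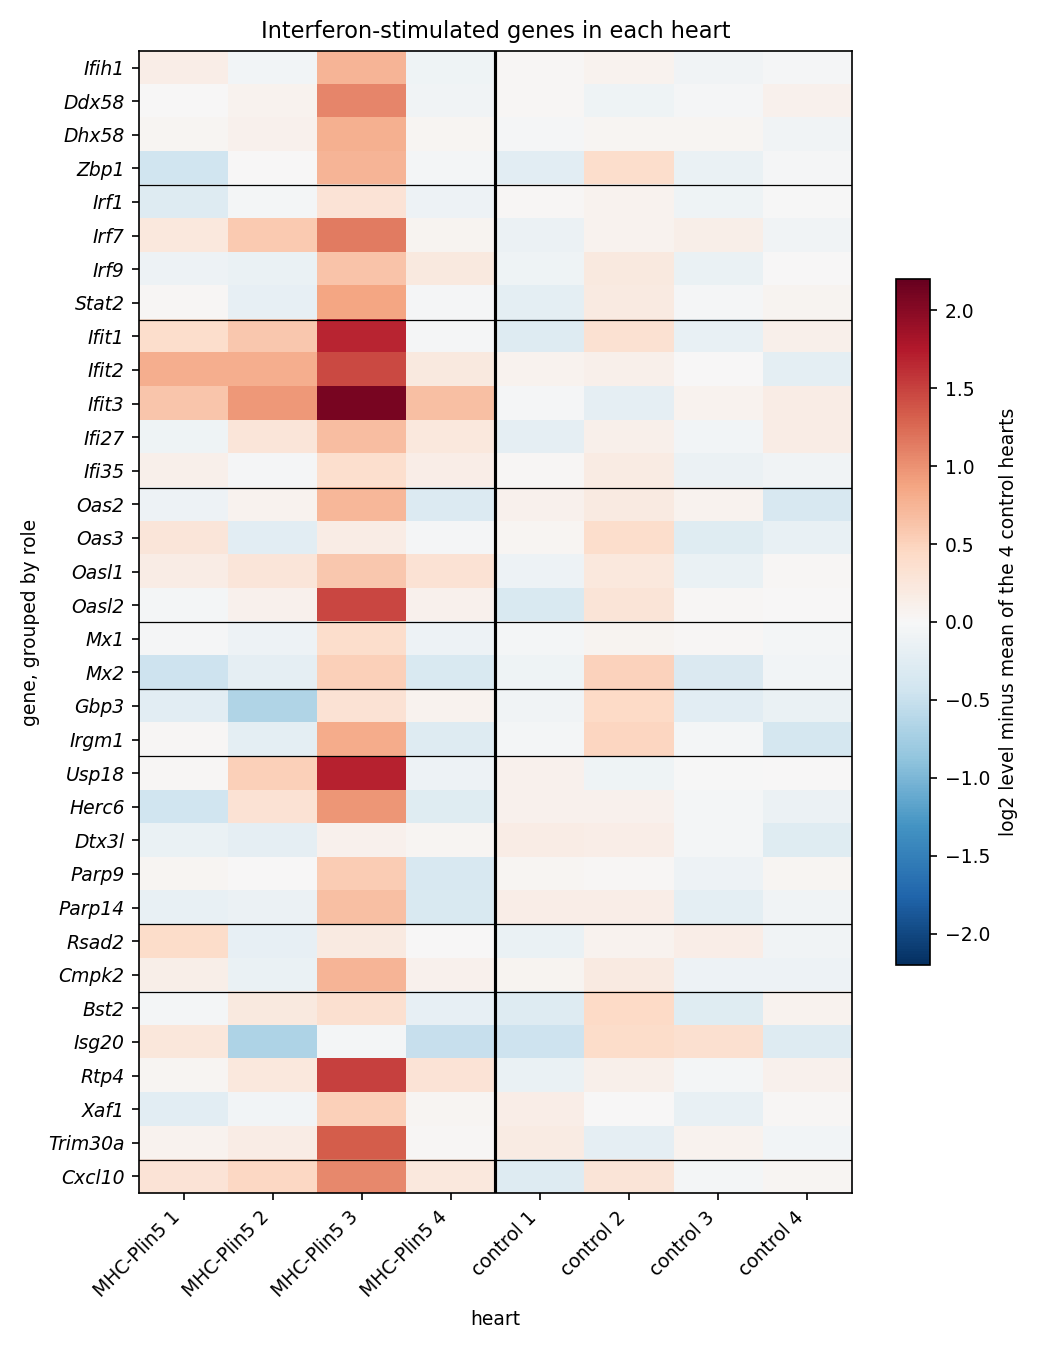
Level of each of the 34 measured members in each heart, as the log2 level minus the mean of the 4 control hearts (colour), with rows grouped by role and MHC-Plin5 hearts left of the control hearts. The column of MHC-Plin5 3 is the reddest, with its highest value in Ifit3 (2.08 above the control mean).

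**Figure D2:**
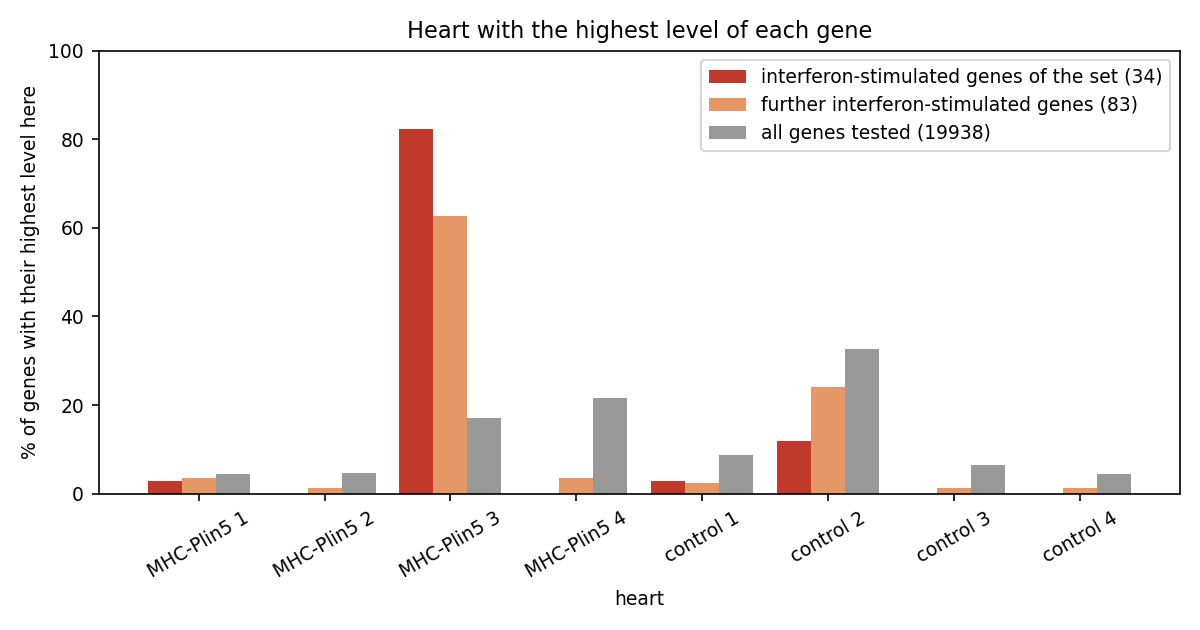
Share of genes (%, vertical axis) whose highest level of the 8 hearts was found in the named heart, for the 34 members, for 83 further interferon-stimulated genes and for all 19938 genes. MHC-Plin5 3 takes 82.4% of the members, 62.7% of the further genes and 17.1% of all genes.

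Between the groups, 0 of the 34 members were called higher and 0 lower by limma at an adjusted p under 0.05, where 2.08% of all genes were called higher and 1.17% lower. At an unadjusted limma p under 0.05, 6 members were higher and 0 lower, against 8.69% and 7.86% of all genes. The 6 were Ifit3, Ifit2, Oasl1, Cxcl10, Irf7 and Ifit1. Both groups' hearts were fully separated in Ifit2 and Ifit3, each higher in MHC-Plin5 hearts, and in 0 members lower, against 6.24% and 5% of all genes. The log2 difference was positive in 29 members and negative in 5, with a median of 0.15, against -0.03 over all genes. Without MHC-Plin5 3 the median was 0.00 and 18 of 34 differences were positive. In bulk tissue, fewer cells of a type and less RNA per cell cannot be told apart.

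**Figure D3:**
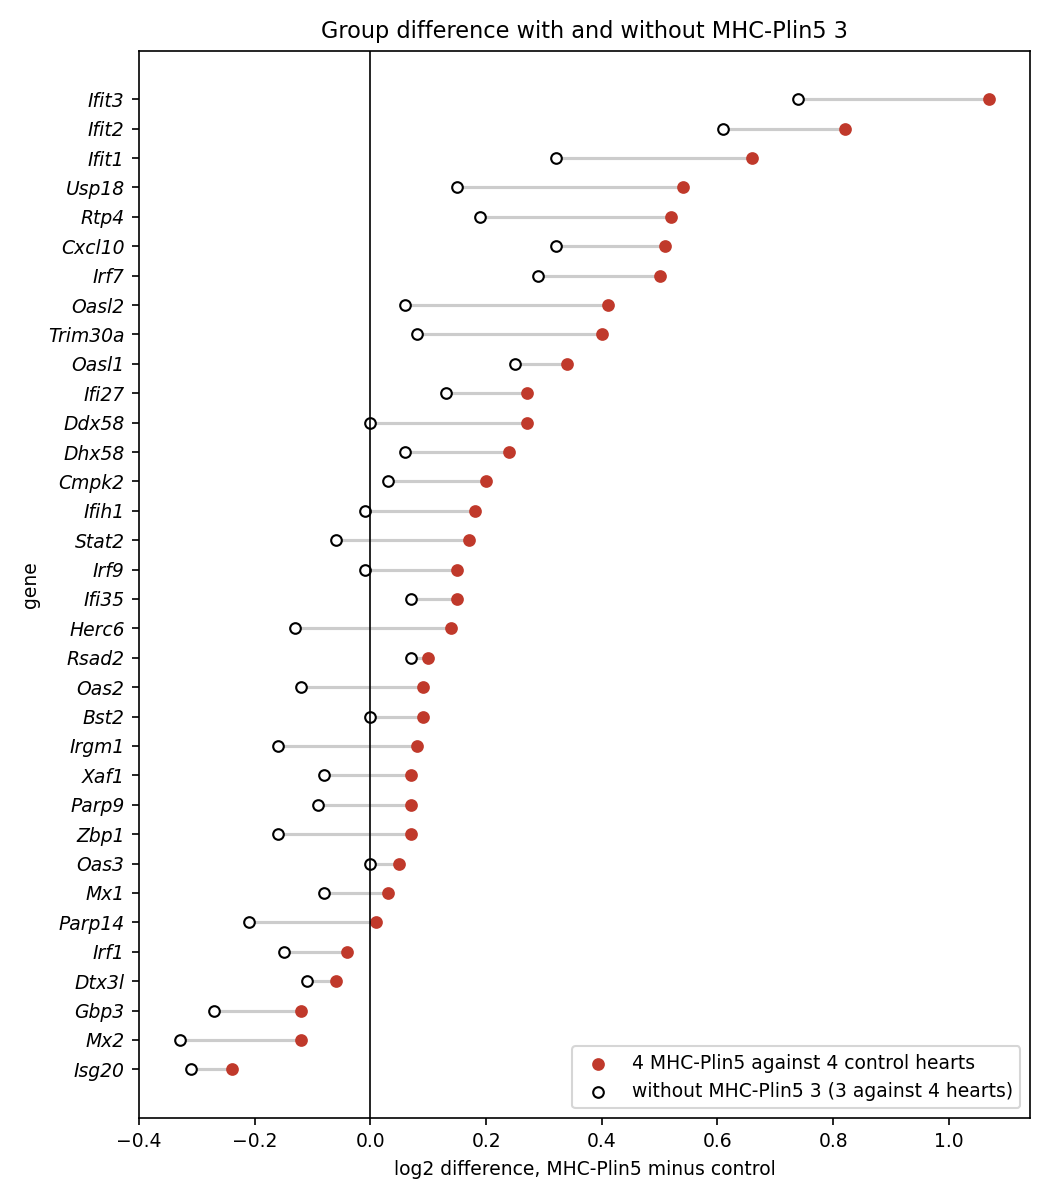
Log2 difference, MHC-Plin5 minus control, of each of the 34 members with all 8 hearts (filled points) and without MHC-Plin5 3 (open points). The open point lies left of the filled one in each row, and Ifit3 and Ifit2 keep the largest differences, 0.74 and 0.61.

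The IFIT proteins bind foreign RNA and block its translation, and their genes lie side by side on chromosome 19. Ifit3, which stabilises IFIT1 on its RNA target in human cells, had levels of 7.76, 8.11, 9.23 and 7.81 in MHC-Plin5 1 to 4, against 7.13, 6.95, 7.22 and 7.32 in control 1 to 4. Every MHC-Plin5 heart was above every control heart, and MHC-Plin5 3 was the highest by more than 1 log2 unit. The group means were 8.23 ± 0.69 and 7.15 ± 0.16 (SD, n = 4 each), a 2.1-fold difference (log2 difference 1.07, SE 0.27, limma adjusted p = 0.06, exact two-sided permutation p = 0.0286). Without MHC-Plin5 3 the log2 difference was 0.74. That permutation p is the smallest that 4 against 4 hearts can give. It is not adjusted, and it only restates that the groups do not overlap, as in 6.24% of all genes higher and 5% lower.

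Ifit2 had levels of 8.03, 8.03, 8.69 and 7.44 in the MHC-Plin5 hearts, against 7.30, 7.35, 7.24 and 7.01 in the control hearts. The groups did not overlap, though MHC-Plin5 4 lay only just above control 2. Its means were 8.05 ± 0.51 and 7.23 ± 0.15 (SD, n = 4 each), with a log2 difference of 0.82 (SE 0.21, limma adjusted p = 0.0642, exact permutation p = 0.0286), and of 0.61 without MHC-Plin5 3. Its 2 RefSeq windows held no ISRE core.

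Ifit1, which binds RNA with an unmethylated cap, had levels of 7.66, 7.87, 8.96 and 7.26 in the MHC-Plin5 hearts, against 7.0, 7.62, 7.11 and 7.40 in the control hearts. Here the groups overlapped, with MHC-Plin5 4 below control 2 and control 4. The log2 difference was 0.66 (SE 0.30, limma adjusted p = 0.302) and 0.32 without MHC-Plin5 3. The near-identical copy Ifit3b, outside the set, had 5.22, 4.99, 6.12 and 4.37 against 4.40, 3.92, 4.01 and 4.30 (1.02, SE 0.29, adjusted p = 0.0949), and its probes may share signal with those of Ifit3. Ifi27, a small mitochondrial and nuclear membrane protein, had a log2 difference of 0.27 (0.13 without MHC-Plin5 3), and Ifi35, a partner of the protein NMI, of 0.15 (0.07 without it). Both overlapped between the groups, and both were highest in MHC-Plin5 3.

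The calls of Ifit2 and Ifit3 lay close to the threshold and depended on the hearts and settings used. Without MHC-Plin5 3, Ifit3 was called (adjusted p = 0.0201) and Ifit2 was not (0.101), where 1.18% of all genes were called higher. Without MHC-Plin5 1, Ifit3 alone was called (0.0429), against 2.07% of all genes. Without MHC-Plin5 4, both were called (Ifit2 0.00781, Ifit3 0.0368), against 3.08% of all genes. Leaving out any single control heart or MHC-Plin5 2 gave adjusted p values between 0.106 and 0.158 for both genes. Both were also called among genes with a mean of at least 7 (Ifit2 0.0469, Ifit3 0.0456, against 5.87% of genes) and with array weights (0.00751 and 0.0205, against 4.43%). Ifit2 alone was called without control 2 and MHC-Plin5 4 together (0.023, against 2.18% of genes).

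**Figure D4:**
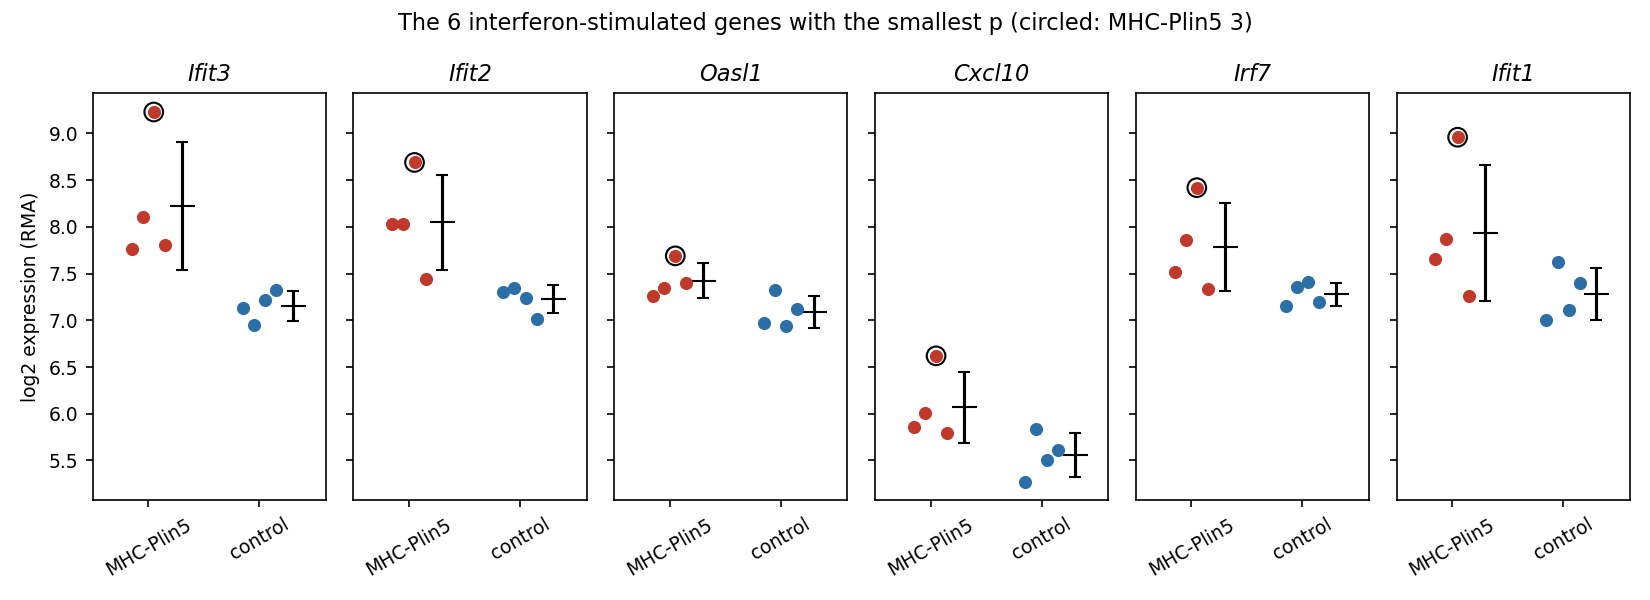
Log2 level (vertical axis) of the 6 members with the smallest limma p in the 4 MHC-Plin5 hearts (red) and the 4 control hearts (blue), with the mean and SD of each group in black. The circled point is MHC-Plin5 3, the highest heart in each panel, and the groups separate fully in Ifit3 and Ifit2.

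Among the sensors, Ddx58 encodes RIG-I, Ifih1 encodes MDA5 and Dhx58 encodes LGP2, the RIG-I-like receptors of viral RNA. Ddx58 had levels of 8.34, 8.41, 9.42 and 8.26 in the MHC-Plin5 hearts, against 8.37, 8.24, 8.31 and 8.43 in the control hearts. MHC-Plin5 3 alone was high, and the other 3 hearts lay within the control range. Its log2 difference was 0.27 (SE 0.22, limma adjusted p = 0.599) with all hearts and 0.00 without MHC-Plin5 3. Dhx58 was also highest in MHC-Plin5 3, at 5.51, 5.56, 6.25 and 5.51 against 5.44, 5.51, 5.51 and 5.39 (0.24, SE 0.16, adjusted p = 0.494, and 0.06 without MHC-Plin5 3), with MHC-Plin5 2 above every control too. Ifih1 had 7.24, 7.03, 7.83 and 6.99 against 7.11, 7.17, 7.02 and 7.07 (0.18, SE 0.17, and -0.01 without MHC-Plin5 3). Zbp1, a sensor of left-handed nucleic acid that can start cell death, had 6.11, 6.54, 7.29 and 6.5 against 6.31, 6.93, 6.40 and 6.52, so that MHC-Plin5 3 was again the highest and MHC-Plin5 1 the lowest heart. The Zbp1 difference was 0.07 with all hearts and -0.16 without MHC-Plin5 3.

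Of the transcription factors, Irf7 amplifies the production of type I interferon and is itself an interferon target. Irf7 had levels of 7.52, 7.86, 8.42 and 7.34 in the MHC-Plin5 hearts, against 7.15, 7.36, 7.41 and 7.20 in the control hearts. The 3 hearts MHC-Plin5 1 to 3 were above every control, and MHC-Plin5 4 lay inside the control range. The log2 difference was 0.50 (SE 0.20, limma adjusted p = 0.222, exact permutation p = 0.0857) and 0.29 without MHC-Plin5 3. Stat2 had 7.54, 7.34, 8.38 and 7.49 against 7.31, 7.71, 7.50 and 7.58, and Irf9, its DNA-binding partner, had 7.84, 7.80, 8.57 and 8.16 against 7.86, 8.17, 7.81 and 7.96. Both stood high in MHC-Plin5 3 alone, with group differences of 0.17 and 0.15 that became -0.06 and -0.01 without that heart. Irf1, induced most by type II interferon, differed by -0.04 (SE 0.12), or -0.15 without MHC-Plin5 3, and a second, dimmer row of Irf1 by -0.28. The brighter row was highest in MHC-Plin5 3 (8.0) and the dimmer one in control 2 (6.62).

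OAS enzymes make a short RNA-like messenger that activates RNase L, and the OASL proteins are relatives of them. Oasl1, which restrains the translation of Irf7 in mice, had levels of 7.26, 7.35, 7.69 and 7.40 in the MHC-Plin5 hearts, against 6.97, 7.32, 6.94 and 7.12 in the control hearts. Only control 2 reached into the MHC-Plin5 range. The log2 difference of 0.34 (SE 0.12, limma adjusted p = 0.18, exact permutation p = 0.0571) was 0.25 without MHC-Plin5 3. Oasl2 had 8.16, 8.30, 9.67 and 8.30 against 7.86, 8.49, 8.22 and 8.21, so MHC-Plin5 3 exceeded the highest control by 1.18 while the other 3 hearts lay below control 2. Without MHC-Plin5 3 the Oasl2 difference was 0.06, against 0.41 with it. Oas2 had a difference of 0.09 (-0.12 without MHC-Plin5 3) and Oas3 of 0.05 (0.00 without it), and Oas3 was highest in control 2. Oasl1 and Oasl2 are neighbours on chromosome 5, as are Oas2 and Oas3, and related sequences may share probe signal.

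Mx proteins are dynamin-like GTPases that trap viral particles, and common laboratory mouse strains carry defective Mx alleles. Mx1 had levels of 4.47, 4.37, 4.88 and 4.38 in the MHC-Plin5 hearts, against 4.45, 4.55, 4.52 and 4.44 in the control hearts. Mx2 had 4.43, 4.70, 5.41 and 4.55 against 4.79, 5.39, 4.57 and 4.83. MHC-Plin5 3 was the highest heart in both, and the differences were 0.03 for Mx1 and -0.12 for Mx2, or -0.08 and -0.33 without that heart. These were the 2 members with a mean under 5, where an array without a detection call does not separate expression from background. Gbp3, a guanylate-binding protein, and Irgm1, a regulator of immunity-related GTPases, act mostly downstream of type II interferon. Gbp3 had 7.19, 6.76, 7.73 and 7.50 against 7.35, 7.86, 7.18 and 7.27 (log2 difference -0.12, SE 0.21, and -0.27 without MHC-Plin5 3), and Irgm1 had 7.38, 7.13, 8.16 and 7.07 against 7.31, 7.82, 7.31 and 6.97 (0.08, SE 0.24, and -0.16 without it). Control 2 was the highest control in both genes.

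Several members act through ubiquitin, the ubiquitin-like protein ISG15 or ADP-ribose. Usp18, which removes ISG15 from proteins and dampens the interferon receptor, had levels of 7.85, 8.35, 9.52 and 7.70 in the MHC-Plin5 hearts, against 7.91, 7.72, 7.81 and 7.82 in the control hearts. The 4 controls lay within a narrow band, MHC-Plin5 3 and MHC-Plin5 2 were above it, and MHC-Plin5 4 was just below it. The log2 difference was 0.54 (SE 0.32, limma adjusted p = 0.439) and 0.15 without MHC-Plin5 3. Herc6, the mouse ligase that attaches ISG15, had 6.04, 6.80, 7.45 and 6.22 against 6.58, 6.57, 6.43 and 6.35, so the MHC-Plin5 hearts held both the highest and the lowest levels (log2 difference 0.14, SE 0.25, and -0.13 without MHC-Plin5 3). Parp9 and Dtx3l form one complex and are neighbours on chromosome 16 with Parp14. The differences with and without MHC-Plin5 3 were 0.07 and -0.09 for Parp9, -0.06 and -0.11 for Dtx3l, and 0.01 and -0.21 for Parp14. By level, MHC-Plin5 3 was the highest heart in Parp9 (8.06) and Parp14 (7.88) but not in Dtx3l, where it had 8.24 against 8.32 in control 1.

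Rsad2 encodes viperin, an enzyme that makes a chain-ending nucleotide, and lies beside Cmpk2, a nucleotide kinase that supplies it. Rsad2 had levels of 8.81, 8.23, 8.60 and 8.41 in the MHC-Plin5 hearts, against 8.27, 8.48, 8.56 and 8.33 in the control hearts, with MHC-Plin5 1 highest. Cmpk2 had 7.17, 6.90, 7.78 and 7.14 against 7.10, 7.23, 6.92 and 6.93, with MHC-Plin5 3 highest. MHC-Plin5 2 was the lowest heart in both genes. Neither difference was called (0.10, SE 0.13, for Rsad2 and 0.20, SE 0.17, for Cmpk2), and without MHC-Plin5 3 they were 0.07 and 0.03.

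Of the other antiviral effectors, Rtp4, which inhibits replication of RNA viruses, had levels of 7.25, 7.45, 8.72 and 7.51 in the MHC-Plin5 hearts, against 7.07, 7.32, 7.16 and 7.30 in the control hearts. MHC-Plin5 2, 3 and 4 were above every control and MHC-Plin5 1 was not (log2 difference 0.52, SE 0.26, limma adjusted p = 0.362, and 0.19 without MHC-Plin5 3). Trim30a, a brake on NF-kappa-B signalling in mice, had 8.39, 8.48, 9.66 and 8.35 against 8.50, 8.13, 8.40 and 8.26, so only MHC-Plin5 3 left the control range (0.40, SE 0.25, and 0.08 without it). Xaf1, a promoter of cell death, had a difference of 0.07 (-0.08 without MHC-Plin5 3), and Bst2, the tetherin that holds budding virus at the membrane, of 0.09 (0.00 without it). Isg20, an RNA-degrading enzyme, had the most negative difference of the set, -0.24 (SE 0.24, adjusted p = 0.683, and -0.31 without MHC-Plin5 3). Its hearts spread widely in both groups, at 9.86, 8.93, 9.57 and 9.11 against 9.15, 10.01, 9.96 and 9.32. Isg20 was the 1 member in which MHC-Plin5 3 did not exceed the control mean.

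Cxcl10, a chemokine that draws activated T cells, had levels of 5.86, 6.01, 6.62 and 5.79 in the MHC-Plin5 hearts, against 5.27, 5.84, 5.51 and 5.61 in the control hearts. MHC-Plin5 4 lay just below control 2, and the other 3 MHC-Plin5 hearts were above every control. The log2 difference was 0.51 (SE 0.18, limma adjusted p = 0.18, exact permutation p = 0.0571), and 0.32 without MHC-Plin5 3.

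The members differed in how far MHC-Plin5 3 stood from the controls. In 10 members (29.4%) that heart lay at least 1 log2 unit, or 2-fold, above the control mean, against 2.53% of all genes. These were Ifit3 (2.08), Usp18 (1.71), Ifit1 (1.68), Rtp4 (1.51), Oasl2 (1.47), Ifit2 (1.46), Trim30a (1.34), Irf7 (1.14), Ddx58 (1.09) and Cxcl10 (1.07). No other heart reached 1 log2 unit above the control mean in any of the 34 members. The SD within the group was larger in MHC-Plin5 than in control hearts for 30 of 34 members (88.2%), against 56.2% of all genes. The median SD over members was 0.42 in MHC-Plin5 and 0.16 in control hearts, and 0.16 among the 3 MHC-Plin5 hearts other than MHC-Plin5 3. Across all genes these 3 median SDs were 0.17, 0.15 and 0.16. The 12 members with an ISRE core lay 0.17 to 2.08 above the control mean in MHC-Plin5 3 (median 0.82), and the 12 whose windows lacked one lay -0.04 to 1.47 from it (median 0.62). MHC-Plin5 3 was the highest of the 8 hearts in 8 of the 12 with a core and in 10 of the 12 without. The 10 members that had no window, Usp18 and Rtp4 among them, are in neither count. A link between the core and the level was not tested.

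Other genes of the pathway came from lists of ligands, receptors, sensors, antigen presentation and further interferon targets. Of 83 further interferon-stimulated genes outside the set, 0 were called higher and 0 lower, against 2.08% and 1.17% of all genes. At an unadjusted limma p under 0.05, 5 were higher and 2 lower, against 8.69% and 7.86% of all genes. Their median difference was 0.10 (-0.01 without MHC-Plin5 3). MHC-Plin5 3 was the highest heart in 52 of these 83, or 62.7%, and control 2 in 20, or 24.1%, against 17.1% and 32.7% of all genes. Ccrl2, a chemokine-binding receptor, had the smallest p of this list and lay lower in MHC-Plin5 hearts, at 7.17, 7.08, 6.89 and 7.26 against 7.85, 7.44, 7.52 and 7.47 (log2 difference -0.47, SE 0.12, adjusted p = 0.0639). The list shares 1 gene with the receptor list, 3 with the sensing list, 3 with antigen presentation and 1 with the macrophage markers.

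The list of interferon ligands had 0 of 16 genes called and a median difference of -0.10 (-0.06 without MHC-Plin5 3). Of all genes, 2.08% were called higher and 1.17% lower. At an unadjusted limma p under 0.05, 0 ligand genes were higher and 3 lower, against 8.69% and 7.86% of all genes. MHC-Plin5 3 was the highest heart in 0 of the 16 ligand genes, and control 2 in 11 (68.8%, against 32.7% of all genes). Their mean level was 5.04 in MHC-Plin5 3, the lowest of the MHC-Plin5 hearts (5.04 to 5.28), against 5.15 to 5.52 in the control hearts. Means of single ligand genes ran from 3.31 to 8.47, and for the dim ones signal cannot be told from background. Ifna13 had 3.07, 3.35, 3.18 and 3.43 against 4.05, 3.83, 3.59 and 3.56 (-0.50, SE 0.13, adjusted p = 0.0684), and its probes may share signal with other interferon alpha genes. Ifnl2, a type III interferon gene, had 8.16, 8.28, 8.12 and 8.50 against 8.62, 9.04, 8.39 and 8.65 (-0.41, SE 0.14, adjusted p = 0.162), with MHC-Plin5 4 above control 3. Of 17 receptor, kinase and brake genes 0 were called. At an unadjusted limma p under 0.05, 1 was higher and 1 lower, against 8.69% and 7.86% of all genes. MHC-Plin5 3 was the highest heart in 9 of these 17 genes (52.9%) and MHC-Plin5 4 in 6 (35.3%). The shares over all genes were 17.1% and 21.5%. Ptpn1, a phosphatase of JAK kinases, had 7.75, 7.68, 8.26 and 7.90 against 7.49, 7.28, 7.55 and 7.66 (0.40, SE 0.14, adjusted p = 0.161), and Pias1, a SUMO ligase that dampens interferon signalling, had 9.17, 9.09, 9.10 and 9.14 against 9.34, 9.24, 9.45 and 9.38 (-0.23, SE 0.09, adjusted p = 0.219). The 4 hearts of each group were separated in both genes. Of all genes, 6.24% were separated with MHC-Plin5 hearts higher and 5% with them lower.

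Of 22 genes of nucleic acid sensing 0 were called, where 2.08% of all genes were called higher and 1.17% lower. At an unadjusted limma p under 0.05, 4 were higher and 1 lower, against 8.69% and 7.86% of all genes. MHC-Plin5 3 was the highest heart in 9 of these 22 genes (40.9%) and the lowest in 5 (22.7%). The shares over all genes were 17.1% and 22.6%. Mavs, the mitochondrial adaptor through which RIG-I and MDA5 signal, had levels of 10.38, 9.64, 9.56 and 10.24 in the MHC-Plin5 hearts, against 10.62, 10.48, 10.68 and 10.58 in the control hearts. Every MHC-Plin5 heart was below every control, as in 5% of all genes, and MHC-Plin5 3 was the lowest (log2 difference -0.64, SE 0.17, adjusted p = 0.0803). Tbk1, the kinase downstream of Mavs, had 7.51, 7.56, 7.67 and 7.25 against 7.27, 7.01, 7.11 and 7.11 (0.37, SE 0.11, adjusted p = 0.108), with MHC-Plin5 4 just below control 1. Without MHC-Plin5 4 both were called, where 614 of all 19938 genes were called higher and 560 lower. Without MHC-Plin5 1 Mavs was called, where 413 genes were called higher and 268 lower.

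Antigen presentation by MHC class I had 1 of 12 genes called higher and 1 lower, against 2.08% and 1.17% of all genes. Psmb10, a catalytic subunit of the immunoproteasome, rose to 9.37, 9.35, 9.32 and 9.17 in the MHC-Plin5 hearts, against 8.46, 8.92, 8.89 and 8.82 in the control hearts (log2 difference 0.53, SE 0.12, adjusted p = 0.035). Psme1, a subunit of the proteasome activator PA28, fell to 9.65, 9.22, 9.29 and 9.97 in MHC-Plin5 hearts, against 10.38, 10.25, 10.28 and 10.36 in control hearts (-0.79, SE 0.15, adjusted p = 0.0211). The call of Psmb10 was lost when any single heart other than MHC-Plin5 4 was left out. That of Psme1 was kept only when the heart left out was MHC-Plin5 1 or MHC-Plin5 4. MHC-Plin5 3 was not set apart in either gene, and it was the highest heart in 2 of the 12 (16.7%, against 17.1% of all genes).

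**Figure D5:**
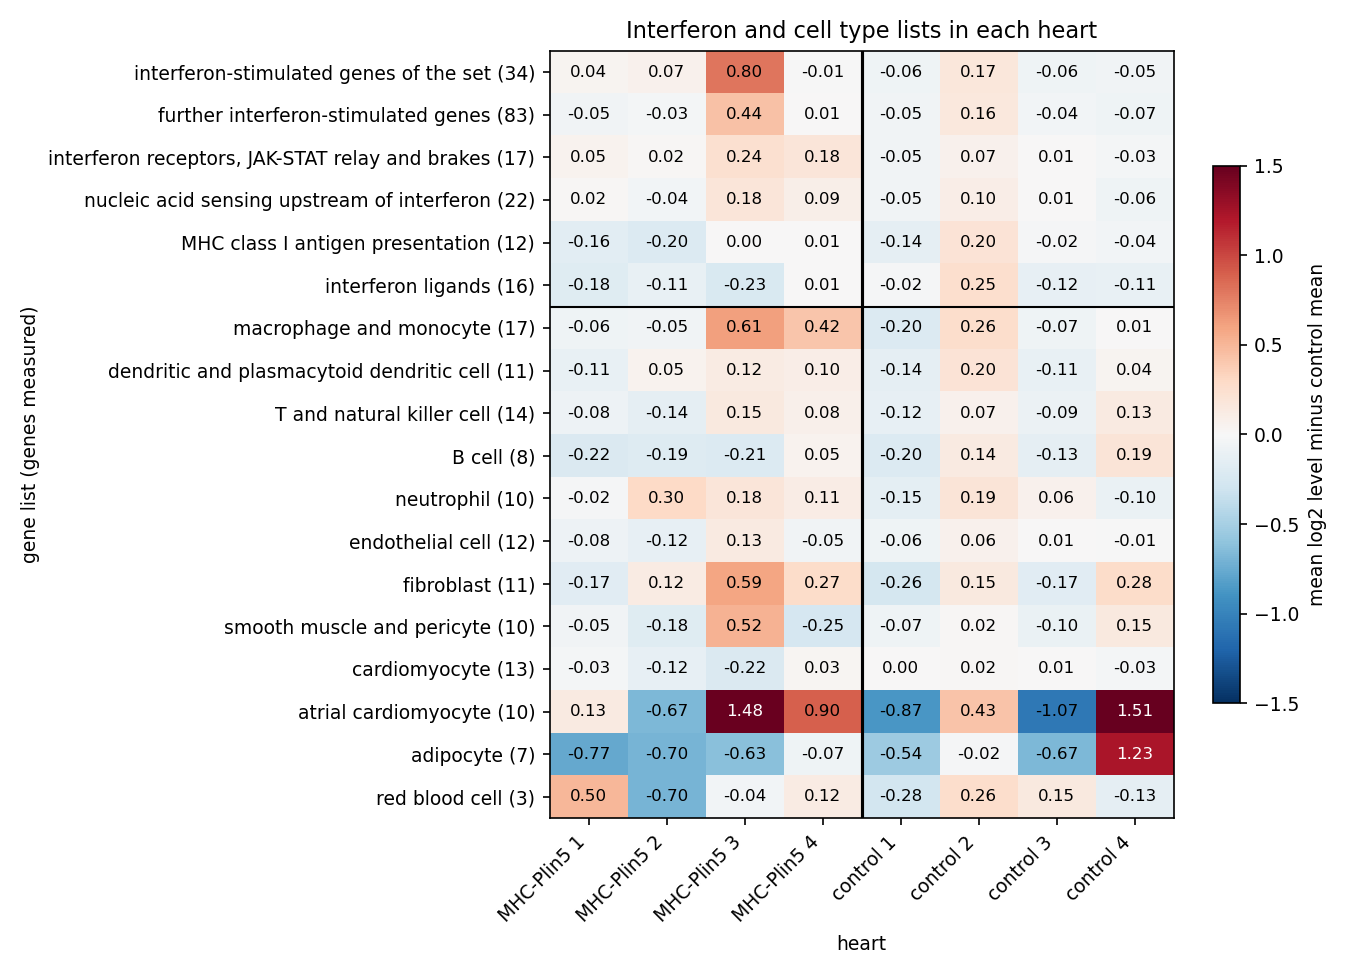
Mean log2 level of each gene list in each heart minus the control mean (colour and printed value), with pathway lists above the line and cell type markers below it. MHC-Plin5 3 has 0.80 for the 34 members, 0.44 for the 83 further interferon-stimulated genes and 0.61 for the macrophage markers.

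Markers of some other cell types were also high in MHC-Plin5 3. Of 17 macrophage and monocyte markers, 16 were above every control heart in MHC-Plin5 3 (94.1%, against 25% of all genes) and 10 in MHC-Plin5 4 (58.8%, against 31.6%). Their mean level was 7.87 to 8.55 in MHC-Plin5 hearts, with MHC-Plin5 3 highest, and 7.74 to 8.20 in control hearts. Cx3cr1, a receptor of resident macrophages and monocytes, had 7.64, 7.55, 8.12 and 7.70 against 7.15, 7.34, 7.19 and 7.46 (log2 difference 0.47, SE 0.13, limma adjusted p = 0.0914). Cd14, a coreceptor for bacterial lipopolysaccharide, had 6.35, 6.72, 6.80 and 6.69 against 6.03, 6.48, 6.25 and 6.22 (0.40, SE 0.13, adjusted p = 0.134). MHC-Plin5 4 had a macrophage mean of 0.42 above the control mean and a member mean of -0.01.

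Fibroblast markers averaged 0.59 above the control mean in MHC-Plin5 3, where 10 of 11 were above every control heart (90.9%, against 25% of all genes). Atrial cardiomyocyte markers averaged 1.48 above the control mean in MHC-Plin5 3 and 0.9 in MHC-Plin5 4. Of these 10 markers, 3 (30%) were above every control heart in MHC-Plin5 3. Smooth muscle and pericyte markers averaged 0.52 above the control mean in MHC-Plin5 3, but were mixed. In that heart 6 of 10 were above the control mean, and 3 were at their lowest of the 8 hearts. Kcnj8, a potassium channel subunit of pericytes, fell to 9.54, 9.29, 9.24 and 9.31 in MHC-Plin5 hearts, against 9.80, 9.74, 9.81 and 9.73 in control hearts (log2 difference -0.43, SE 0.10, limma adjusted p = 0.0377). That call was kept only when the heart left out was MHC-Plin5 1 or MHC-Plin5 4. The atrial markers averaged 1.51 in control 4, whose member mean was -0.05. T and natural killer cell markers averaged 5.12 to 5.41 in MHC-Plin5 hearts and 5.14 to 5.40 in control hearts, B cell markers 5.41 to 5.67 and 5.43 to 5.81, and neutrophil markers 5.04 to 5.36 and 4.91 to 5.26. Dendritic cell markers, which include Bst2, averaged 5.67 to 5.90 in MHC-Plin5 hearts and 5.64 to 5.98 in control hearts. Cd209a, the dendritic marker with the smallest p, had 6.14, 6.82, 7.98 and 6.73 against 6.25, 6.44, 5.63 and 6.37 (0.74, SE 0.32, limma adjusted p = 0.28). It lay 1.81 above the control mean in MHC-Plin5 3, where 4 of the 11 dendritic markers were above that mean. In these immune lists, 0 markers were called in either direction, against 2.08% of all genes called higher and 1.17% lower. Over the 5 lists, macrophages included, 8 were higher and 1 lower at an unadjusted limma p under 0.05. The shares over all genes were 8.69% and 7.86%, and 4 of the 8 were among the 10 neutrophil markers. Endothelial markers averaged 10.02 to 10.27 in MHC-Plin5 hearts and 10.08 to 10.21 in control hearts, and adipocyte markers 5.99 to 6.70 and 6.09 to 7.99. The 3 red blood cell markers averaged 6.53 to 7.74 in MHC-Plin5 hearts and 6.95 to 7.49 in control hearts. The part of these cell types in the levels of MHC-Plin5 3 was not tested.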

How the data were processed

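Heart RNA was extracted with a Qiagen RNeasy kit and labelled with the Ambion WT expression kit and Affymetrix WT labelling, per the labels' protocols. Per the submitters' processing notes, the deposited table holds log2 values that the authors obtained with RMA in Affymetrix Expression Console. For version and settings, the sources used here give nothing. RMA scales arrays to a shared distribution and gives no detection call. Of 35556 rows, 21789 carried 1 gene symbol in the platform annotation, 1621 several and 12146 none. The brightest row was kept for the 999 genes with several, leaving 19938 genes, with no filter on dim genes. The groups were compared with limma 3.58.1 (lmFit and eBayes) in R 4.3.3, without covariates, with Benjamini-Hochberg adjustment over all genes and a call at an adjusted p under 0.05. Exact permutation tests over the 8 hearts were two-sided. The labels do not say how the hearts were batched. Each limma p sets the group difference against the spread within the groups of these 8 samples, taken as equal in both groups. The fit was tested on simulated data of 19938 genes, in which 38% of genes given a log2 difference of 0.5, 89% at 1 and 100% at 2 were called. The simulated scatter did not differ between the groups. The 34 members had a median SD of 0.42 in MHC-Plin5 and 0.16 in control hearts, against 0.17 and 0.15 over all genes. Those rates therefore cannot be carried over to the members, and the chance of calling a member was not tested. The members and all gene lists were chosen with earlier results of these data known. Levels in every heart are given for the 6 members with the smallest p and for members of each role. Of the lists, they are given for called genes, for genes with the smallest p in the pathway and macrophage lists, and for Cd209a. Markers with the smallest p in the other cell type lists are not printed. Other filters, normalizations, variance models and left-out hearts were tried as alternatives. Tables and plots used Python 3.11.15, pandas 2.3.3 and matplotlib 3.10.9. Precision is limited by having 4 arrays in each group.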

Additional observations from a re-analysis of the deposited data

Results flagged for a closer look

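In 5 of 70 groups of 4 hearts (34 members and Plin5 in both groups), 1 heart lay apart from the other 3 by a gap, as a share of the group's range, above Dixon's critical value for 4 samples. Chance gives this in about 1 group in 20. MHC-Plin5 3 was the high heart in Dhx58 (gap 0.932 of the range, level 6.25), Oasl2 (0.91, level 9.67), Trim30a (0.9, level 9.66) and Ddx58 (0.871, level 9.42). In Parp9, control 3 was the low heart (0.913, level 7.39). MHC-Plin5 3 was apart at the top of its group in 4 of 34 members (11.8%), against 0.823% of all genes.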

How the results depend on the processing

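The count of members called higher was 0 with all hearts. It was 2 (Ifit2 and Ifit3) among genes with a mean of at least 7, where 5.87% of genes were called higher, and with array weights (4.43%). It was also 2 with the heart number as a replicate block, where 330 of 19938 genes were called higher. At an adjusted p under 0.1 it was 2 as well, and the share over all genes at that threshold is not given here. It was 1 (Ifit2) without control 2 and MHC-Plin5 4 (2.18% of genes). It ranged from 0 to 2 when each heart was left out in turn, and the cause was not tested. Over the limma fits the adjusted p ranged from 0.00751 to 0.158 for Ifit2 and from 0.0201 to 0.158 for Ifit3. A t-test with separate variances per gene and group, run without limma, gave adjusted p values of 0.373 and 0.38. No member was called lower, and the other 32 members were called in none of these fits. With the replicate block the adjusted p was 0.0396 for Ifit2 and 0.047 for Ifit3. Deviations of hearts with the same number correlated at 0.187, 0.0254, -0.107 and -0.0403. Of 4 MHC-Plin5 hearts, 1 correlated best with the control of its own number. The labels do not say what the number means, and so few correlations cannot decide whether it marks a shared litter or day. With each heart left out in turn, called genes numbered 0 to 1 among the ligands, 0 to 2 in sensing, 0 to 2 in MHC class I presentation (2 with all hearts) and 0 to 2 among the further interferon-stimulated genes. The members' median difference ranged from 0.00 without MHC-Plin5 3 to 0.30 without control 2 and MHC-Plin5 4. Without MHC-Plin5 3, 11 members, none of them called, changed sign. Genes called in all numbered 415 higher and 233 lower, but 884 and 741 with array weights and 23 and 5 with separate variances. Without a detection call, signal near background cannot be told from expression for dim genes such as Mx1, Mx2 and Ifna13.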
